A study of Mus musculus with 11 samples.

Results

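The mitochondrial genome of the mouse carries 37 annotated genes, and their transcripts were followed here in single 8-cell embryos that carried or lacked Prdm10. Members were chosen by symbol: every gene of the deposited tables whose symbol begins with mt-, 37 of 54146 genes in all. They comprised 13 mRNA genes, 2 rRNA genes and 22 tRNA genes, and all 37 lay on chromosome M of mouse build GRCm38. A mean normalised count above 10, the study's own limit, was passed by 17 members: the 13 mRNA genes, both rRNA genes and the tRNA genes mt-Tq and mt-Ts1. The other 20 tRNA genes were too sparse to be tested.

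Single-embryo RNA-seq was performed on 11 C57BL/6 embryos taken from the oviduct at embryonic day 2.5, after natural mating of Prdm10Δ/+ parents. The mutant group held 5 Prdm10Δ/Δ embryos, and the control group held 6 embryos that were Prdm10+/+ or Prdm10Δ/+, which the labels pool as WT/HET. The Δ allele was derived from a knockout-first embryonic stem cell clone by FLPe and then ACTB-Cre, and lacks an exon in every cell. Embryos were sorted into groups by qRT-PCR for that exon on their own amplified cDNA, so the grouping and the sequencing share 1 cDNA sample per embryo. Libraries were made by Smart-seq2, in which an oligo-dT primer starts the cDNA at runs of A. Batch 1 (3 controls and 2 mutants) was pre-amplified with 16 PCR cycles and batch 2 (3 controls and 3 mutants) with 13, and cycles, litter and day cannot be told apart. Embryos were numbered within a group, with controls 1 to 3 and mutants 1 to 3 in batch 2.

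The deposited tables held 3534735 to 8265840 expected counts per embryo, over 14903 to 16337 genes with at least 1 count. Counts of the whole Prdm10 gene, which include reads outside the deleted exon, ranged from 124 to 381 normalised counts in controls (median 237) and from 104 to 202 in mutants (median 159). The groups overlapped in batch 1 (124 to 230 in controls) and did not in batch 2 (244 to 381 in controls, 120 to 202 in mutants). All 10 listed embryo markers were detected in at least 1 embryo, with a summed level of 26424 to 35569 normalised counts per embryo that came mostly from Dppa3 and Obox6. Of the 9 tested, 1 was called in mutants, lower, where 0.881% of all genes were: Klf17 (log2 difference −1.10, DESeq2 adjusted p = 0.021), a call lost with edgeR (adjusted p = 0.207) and limma (adjusted p = 0.417). In batch 1, 4 of the 9 were called higher (Pou5f1, Nanog, Tfap2c and Klf17), against 14% of all genes, and 2 lower (Oosp1 and Dppa3), against 13.8%. The Nanog call was lost with edgeR (adjusted p = 0.0741) and limma, and those of Oosp1 and Dppa3 with limma. Values of oviduct and blood markers are given with the batch comparison. The part of these shifts in the mitochondrial values was not tested.

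Mitochondria hold many copies of a small circular genome that passes to the embryo with the egg. Both of its strands are transcribed as long precursors, and tRNAs placed between the other genes are cut out to free the mRNAs and rRNAs. The mRNAs encode core subunits of the respiratory chain complexes and of ATP synthase, and the rRNAs build the mitochondrial ribosome that translates them. Most mitochondrial mRNAs receive short A tails, and for some of them the tail supplies the end of the stop codon. Cleavage-stage embryos are known to live on mitochondria inherited from the oocyte, with little replication of their DNA before the blastocyst.

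The genes packed the genome closely. They covered 15365 of the 15422 bases up to the last annotated gene, and some neighbours overlapped, among them mt-Atp8 and mt-Atp6, mt-Nd4l and mt-Nd4, and, on opposite strands, mt-Nd5 and mt-Nd6. Of the 13 mRNA genes, 10 ended in a whole stop codon and 3 did not (mt-Co3, mt-Nd4 and mt-Cytb). The final 30 bases of these 3 genes and of 2 genes with a whole stop codon are given 5′ to 3′ on the coding strand (GRCm38), with the stop codon, or the last T that begins it, in capitals.
mt-Co3: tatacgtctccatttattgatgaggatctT
mt-Nd4: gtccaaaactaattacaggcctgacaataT
mt-Cytb: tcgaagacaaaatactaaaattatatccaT
mt-Nd4l: gtccaaaatctcaacctactacaatgcTAA
mt-Nd6: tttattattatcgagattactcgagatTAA

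Part of this genome also stands in the nucleus. A run of 7 neighbouring nuclear genes between bases 24611535 and 24616197 of chromosome 1, on the minus strand, shared at least 90% of their 31-base words with the mitochondrial genome. In their order along it, Gm29216 matched mt-Co1, Gm28661 mt-Co2, Gm10925 mt-Atp6, Gm28437 mt-Co3, Gm28438 mt-Nd3, Gm10222 mt-Nd4l and Gm28439 mt-Nd4. The match was complete over 783 of the 784 bases of mt-Co3, over 294 of the 297 bases of mt-Nd4l and, with 1 substitution, over 345 of the 348 bases of mt-Nd3. Gm29216 covered 492 of the 1545 bases of mt-Co1 with 6 substitutions, all between 6383 and 6393 at the start of the shared stretch. Only a read that crosses such a base can be told apart, and 2 of these places are shown with 1 differing base in capitals (chromosome M, plus strand, positions counted from base 1 of that chromosome). The first pair, M:9459-9475, holds the single difference T9461C, and the second pair, M:6381-6407, holds all 6 differences of Gm29216, of which the last, A6393T, is in capitals and the others (T6383A, C6384T, A6386G, A6387G and C6389A) stand in lower case.
mt-Nd3: atTaacctgtacactgt
Gm28438: atCaacctgtacactgt
mt-Co1: ggtctaaccggaAttgttttatccaac
Gm29216: ggattggcaggaTttgttttatccaac

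A read of 75 bases, the length sequenced, can therefore match both places. Such reads made up 99.9% of those that fit inside mt-Co3, 99.5% for mt-Co2 and mt-Atp6, 98.7% for mt-Nd4l, 97.8% for mt-Nd3, 61.5% for mt-Nd4 and 27.5% for mt-Co1. For mt-Nd1, mt-Nd2, mt-Nd5, mt-Nd6, mt-Atp8, mt-Cytb and both rRNA genes the share was 0. The counter divides a shared read between its possible genes, so results are given on the counts as deposited or, where so stated, with the counts of the nuclear copy added to those of its mitochondrial gene ("copies added").

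Mitochondrial transcripts took 6.23% to 10.2% of all counts. In controls the share was 7.13%, 8.23% and 10.2% in batch 2 and 6.27%, 7.15% and 10.2% in batch 1, a mean of 8.19% ± 1.66 (SD, n = 6). In mutants it was 6.23%, 7.13% and 7.19% in batch 2 and 6.64% and 7.30% in batch 1, a mean of 6.90% ± 0.450 (SD, n = 5). Of the 5 mutants, 4 lay inside the range of the controls, 1 lay just below it, and the controls were more spread than the mutants, with 1 control of each batch above 10%. The difference of the means, mutant minus control, was −1.29 percentage points, less than the SD of the controls, with −1.67 in batch 2 and −0.891 in batch 1. As a share of TPM, mutants averaged 9.78% ± 0.969 and controls 11.9% ± 2.09, and 3 of the 5 mutants, those of batch 2, lay below all controls. Batch 1 averaged 7.50% ± 1.54 (n = 5) and batch 2 7.69% ± 1.39 (n = 6), and the sign of that difference turned when shares were taken from TPM. With copies added, controls averaged 8.73% ± 1.76 and mutants 7.37% ± 0.542. Clopper-Pearson 95% intervals of single shares were at most 0.0287 percentage points to either side. They treat every read as independent, although reads were amplified by PCR and carried no molecular identifiers. They are therefore too narrow even for the counting error of molecules.

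**Figure D1:**
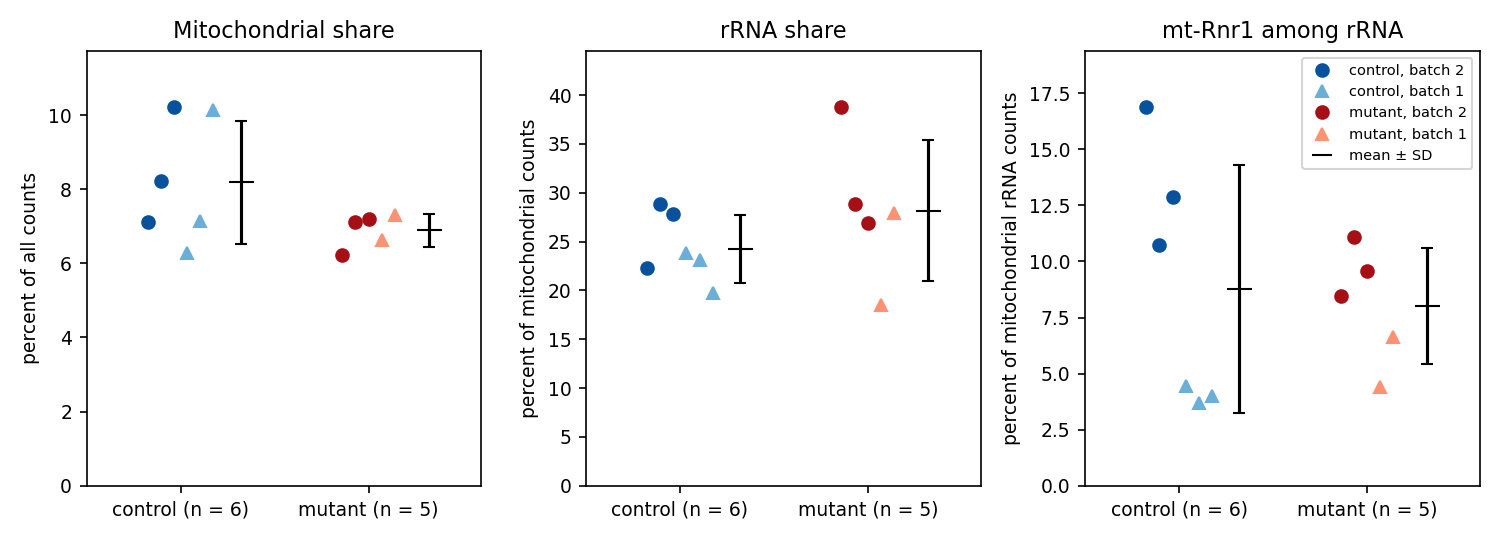
Mitochondrial share of all counts, rRNA share of mitochondrial counts and mt-Rnr1 share of rRNA counts (all in percent), by group; each point is 1 embryo (circles, batch 2; triangles, batch 1), and bars give the mean ± SD. The groups overlap in every panel, and in the third the batch 1 embryos (3.69% to 6.64%) lie below those of batch 2 (8.44% to 16.9%).

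Mitochondrial genes stood among the most abundant genes of the embryo. By count, mt-Rnr2 (large-subunit rRNA) ranked 2 to 3 of all genes in the 11 embryos, mt-Cytb (cytochrome b, of complex III) 2 to 6, mt-Atp6 (an ATP synthase subunit) 3 to 6 and mt-Nd1 (a complex I subunit) 3 to 7. Between 5 and 7 members were among the 10 genes with most counts, and 9 to 10 among the first 50. As deposited, mt-Co3 (a cytochrome c oxidase subunit) ranked anywhere from 140 to 8431.

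Per length, as TPM with copies added, mean levels fell from 21342 for mt-Atp6, 14800 for mt-Rnr2, 13196 for mt-Atp8 and 12768 for mt-Cytb to 2410 for mt-Rnr1 (small-subunit rRNA) and 1095 for mt-Nd6, the only mRNA gene on the minus strand. Between these lay, in order, mt-Nd1, mt-Co1, mt-Co2, mt-Nd4l, mt-Nd4, mt-Nd3, mt-Co3, mt-Nd2 and mt-Nd5, from 10860 to 2598 TPM. Most neighbours in this order could not be separated: of 14 neighbouring pairs, mt-Nd2 over mt-Nd5 was the pair that held in 11 of 11 embryos, and the others held in 5 to 10. The copies moved mt-Nd4l and mt-Co3 up the order, since these stood at 1670 and 461 TPM as deposited, against 6181 and 4429 with copies added. They also set mt-Co1 (6425 as deposited, 7973 with copies added) above mt-Co2 (6451 and 6482). The plot of levels per length shows both sets of means.

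**Figure D2:**
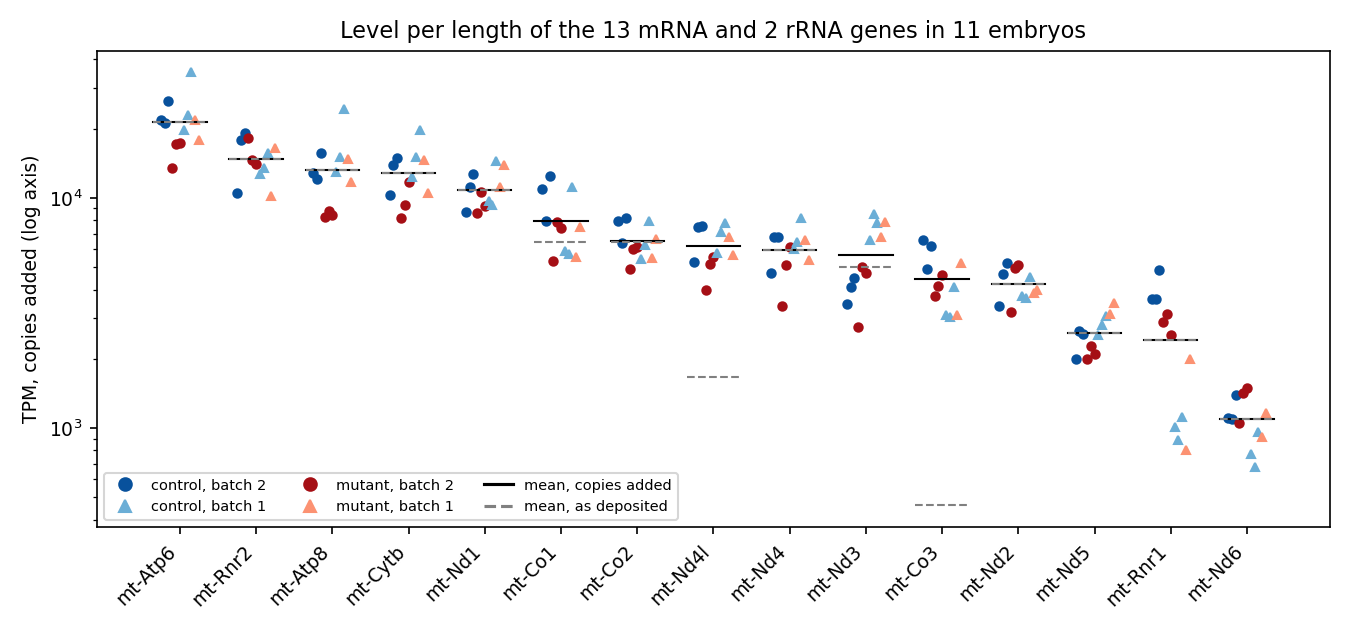
Level of the 13 mRNA and 2 rRNA genes in TPM on a log axis, ordered by the mean with copies added; points are single embryos, solid lines the mean with copies added and dashed lines the mean as deposited. The dashed line falls well below the solid line for mt-Nd4l and mt-Co3.

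Of the mitochondrial counts, 75.7% ± 3.46 (SD, n = 6) were mRNA in controls and 71.8% ± 7.21 (n = 5) in mutants, and nearly all of the rest was rRNA. The rRNA share was 24.3% ± 3.46 in controls (19.7% to 28.9%), against 38.7%, 28.8% and 26.9% in the batch 2 mutants and 18.5% and 28.0% in the batch 1 mutants. Of the mutants, 1 lay above all controls and 1 below them. With copies added, the rRNA share averaged 22.8% in controls and 26.4% in mutants. By batch, it was, as deposited, 22.6% ± 3.73 in batch 1 and 28.9% ± 5.41 in batch 2, again with overlap.

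The mRNA counts were divided by the complex that each protein joins, with copies added. Complex I (NADH dehydrogenase, the 7 mt-Nd genes) took 36.5% ± 3.50 of them in controls (31.1% to 40.4%) and 41.3% ± 1.70 in mutants (39.7% to 44.0%), with 3 of 5 mutants above all controls. Complex V (ATP synthase, mt-Atp6 and mt-Atp8) took 20.1% ± 1.61 in controls (18.2% to 22.8%) and 17.6% ± 1.46 in mutants (16.4% to 20.0%), with 4 of 5 mutants below all controls. Complex IV (cytochrome c oxidase, mt-Co1 to mt-Co3) took 25.0% in controls and 24.2% in mutants, and mt-Cytb 18.4% and 17.0%. These shares of 1 total move against each other, and over both batches the groups overlapped for each complex. Within each batch, every mutant lay above every control for complex I, and for complex V every mutant lay below every control in batch 2 but not in batch 1. Shares by complex were not planned, and how often other gene sets separate in this way was not counted. No mt-Nd gene was itself called between the groups. The total mRNA, with copies added, averaged 5.44% of all counts in mutants and 6.74% in controls. Complex IV set the batches further apart, at 21.0% ± 2.71 in batch 1 (18.0% to 24.7%) and 27.7% ± 3.65 in batch 2 (24.0% to 34.2%).

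The share of mt-Nd6 in mRNA counts is given as deposited, with no test. It was 0.744%, 0.657% and 0.721% in the batch 2 controls against 0.981%, 1.03% and 1.05% in the batch 2 mutants, and 0.536%, 0.428% and 0.427% in the batch 1 controls against 0.573% and 0.754% in the batch 1 mutants. Within each batch every mutant lay above every control, while across batches the groups overlapped. This measure was not planned, and how many genes separate in this way within both batches was not counted. The gene's own normalised count was not called between the groups and overlapped within each batch. In batch 2 it was 2360 to 3276 in controls and 2303 to 3335 in mutants. In batch 1 it was 1304.5 to 2006 in controls, and 1715 and 2260.5 in mutants. Mitochondrial mRNA, the total of this share, averaged 4.96% of all counts in mutants and 6.20% in controls.

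The tRNA genes, which supply the tRNAs of mitochondrial translation, took 0.0041% to 0.0216% of mitochondrial counts, or 667 counts in all 11 embryos together and 12 to 111 in each. Between 6 and 20 of the 22 had a count in a given embryo, and mt-Ts2 had none in any. Of these counts, 69.4% fell on the 8 genes of the minus strand, against 14 on the plus strand. Of the 22 genes, 21 were shorter than a read, so a whole read cannot lie inside them and the deposited TPM was 0 for them whatever the count.

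The 2 tRNA genes with the highest normalised counts both lay on the minus strand: mt-Ts1, with a mean of 14.3 (3.47 to 27.4), and mt-Tq, with 14.04 (3.47 to 20.7). They were followed by mt-Te at 3.35, mt-Tg at 2.33 and mt-Tl1 at 2.16. Since no strand was kept, reads of these genes and reads of the opposite strand, where the precursor of the other genes runs through, cannot be told apart. The whole genes are given 5′ to 3′ on their own strand (GRCm38), in lower case throughout: mt-Tq, M:3772-3842, and mt-Ts1, M:6870-6938, which overlaps the last bases of mt-Co1.
mt-Tq: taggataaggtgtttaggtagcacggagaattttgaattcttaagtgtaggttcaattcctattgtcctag
mt-Ts1: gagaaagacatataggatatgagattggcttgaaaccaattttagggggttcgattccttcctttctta

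The nuclear copies held 5.08% to 8.81% of the counts of mitochondrial genes and copies together, and how a pair was divided varied between embryos. Gm28437, identical to mt-Co3 over its length, held 65.3% to 93.4% of the summed counts of the pair in batch 2, 88.0% in control 4, and over 99% in the other 4 embryos of batch 1. Its normalised counts were 7698 to 21351, against 22.9 to 5885 for mt-Co3. Gm10222 held 56.5% to 84.8% of its pair with mt-Nd4l, at 3158 to 7173 normalised counts.

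Gm28438, the copy with 1 substitution, was divided by batch. It held 1230, 2741, 1744, 1147 and 1688 normalised counts in the batch 1 embryos, 14.6% to 27.1% of its pair with mt-Nd3. In batch 2 it was at 14.5 in 1 control and at 0 in the other 5 embryos. Gm10925 had counts in 3 embryos only (232 in mutant 1, 267 in control 4 and 457 in control 6), under 1% of its pair with mt-Atp6 in each, and Gm28661, the copy of mt-Co2, reached 100 in mutant 4 and 787 in mutant 5 and was below 1 in all other embryos. The plot of the pairs shows that the sum of mt-Co3 and its copy varied far less between embryos than mt-Co3 did. The part of read assignment in these differences was not tested.

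**Figure D3:**
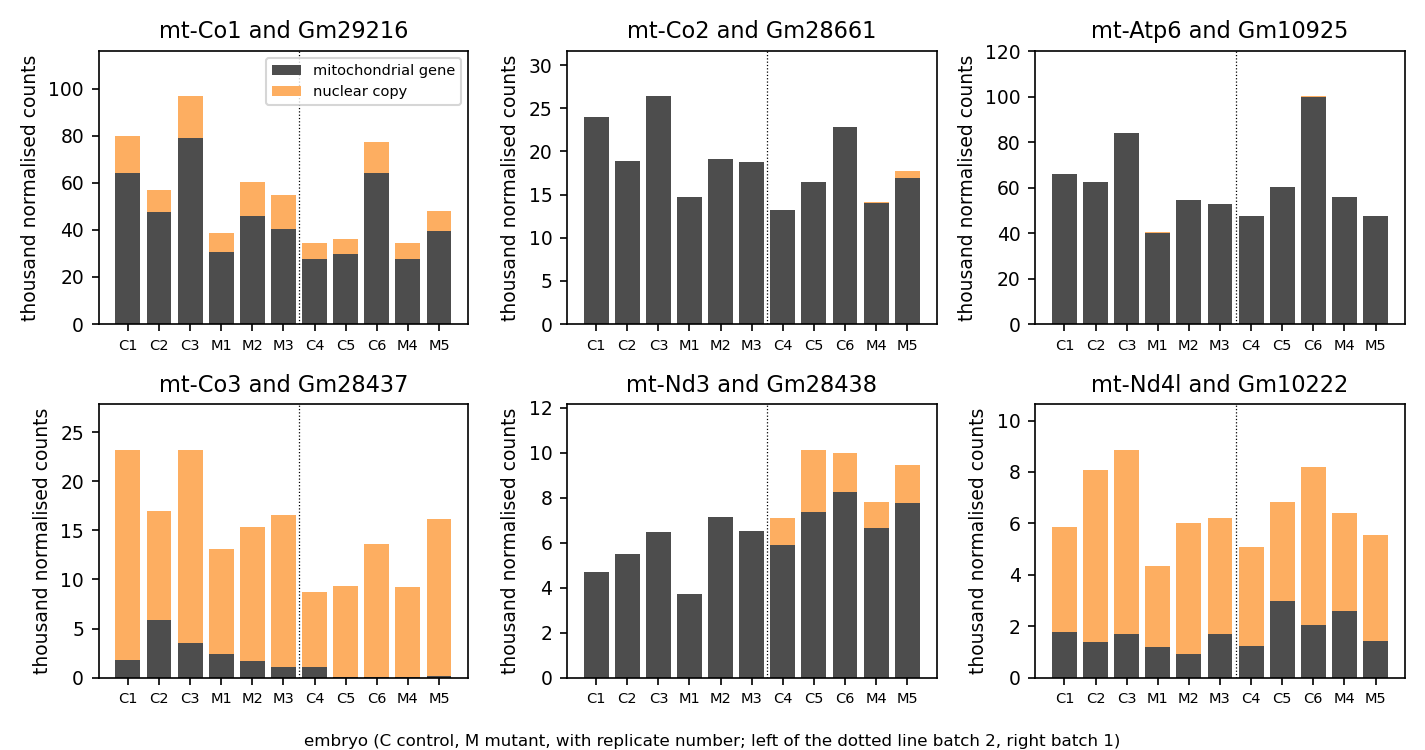
Normalised counts of 6 mitochondrial genes and their nuclear copies, stacked, in each embryo (batch 2 left of the dotted line, batch 1 right of it). The copy takes most of the mt-Co3 pair (65.3% to 99.7%) and of the mt-Nd4l pair, and Gm28438 has counts almost solely in batch 1.

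The first comparison asked whether loss of PRDM10, a zinc finger transcription factor, changed these transcripts. None of the 17 tested members was called in mutants against controls by the DESeq2 test with batch as a term (called: mean normalised count above 10 and adjusted p under 0.05 over all genes), and 4 had an unadjusted p under 0.05. Over all genes, 151 of 10448 (1.45%) were called, 59 higher (0.565%) and 92 lower (0.881%) in mutants. The median log2 difference of the members was −0.06, against 0.00 over all genes. It ranged from −0.17 to 0.06 with 1 embryo left out, turning sign without control 3, and was −0.31 in batch 2 alone. No member had normalised counts without overlap between the groups, against 0.925% of all genes. With copies added the members called were again 0, against 1.45% of all genes. edgeR and limma also called 0 members, with 5 and 2 at an unadjusted p under 0.05, where they called 32 of 11798 and 17 of 11675 genes. In the RNA of a whole embryo, fewer cells of a kind and less RNA per cell cannot be told apart, and values scaled to all counts do not separate less mitochondrial RNA from more of other RNA.

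The 4 lowest unadjusted p-values belonged to genes of 3 complexes, all with lower means in mutants. For mt-Atp8, whose product is a small ATP synthase subunit, normalised counts were 5268, 5948, 5514, 8135 and 6708 in mutants and 6699, 8402 and 14885 (lowest, median and highest) in controls. Of the 5 mutants, 3 lay below all controls and the other 2 inside their range. The log2 difference was −0.57 ± 0.20 (SE; DESeq2 adjusted p = 0.142), with −0.43 in batch 1 alone and −0.68 in batch 2 alone. Without control 4, the control with the lowest count, mt-Atp8 was called (−0.67, adjusted p = 0.0268), the sole member to cross the threshold when any 1 embryo was left out.

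For mt-Atp6 the mutants stood at 40032 to 55986 and the controls at 47322 to 99681 normalised counts, a log2 difference of −0.48 ± 0.19 (SE; DESeq2 adjusted p = 0.245). For mt-Co1, the catalytic subunit of cytochrome c oxidase, it was −0.51 ± 0.24 (adjusted p = 0.375), and with copies added −0.45, where its unadjusted p no longer passed 0.05. For mt-Cytb it was −0.39 ± 0.19 (adjusted p = 0.418). The largest fitted difference was that of mt-Co3, −1.42 ± 0.82 (adjusted p = 0.516). With copies added it was −0.15 ± 0.21.

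The remaining genes had unadjusted p-values over 0.05. Among complex I genes, mt-Nd5 differed by 0.01 (95% interval −0.30 to 0.31), mt-Nd2 by −0.01, mt-Nd1 by −0.04, mt-Nd3 by 0.04, mt-Nd4 by −0.27 and mt-Nd4l by −0.21 (−0.33 with copies added). For mt-Nd6 the difference was 0.24 ± 0.18 (DESeq2 adjusted p = 0.672), and for mt-Co2 −0.30 ± 0.17 (adjusted p = 0.517). The rRNA genes differed by −0.06 (mt-Rnr1, 95% interval −0.56 to 0.43) and −0.04 (mt-Rnr2, −0.44 to 0.35), and mt-Tq and mt-Ts1 by 0.22 and 0.13 with wide intervals (mt-Tq, −0.91 to 1.34). A fall of the size seen at mt-Atp8 lay outside the intervals of mt-Rnr2, mt-Nd1, mt-Nd2, mt-Nd3, mt-Nd5 and mt-Nd6. It lay inside those of mt-Co2, mt-Nd4, mt-Nd4l and the tRNA genes. For mt-Rnr1 the lower end of the interval (−0.56) fell next to it, and that fit pools batches that differed. In batch 2, its mutants (12527, 14324 and 11172 normalised counts) lay below all controls (15657 to 22514). In batch 1, its mutants (3003 and 7722) lay on either side of the controls (3388 to 4634).

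**Figure D4:**
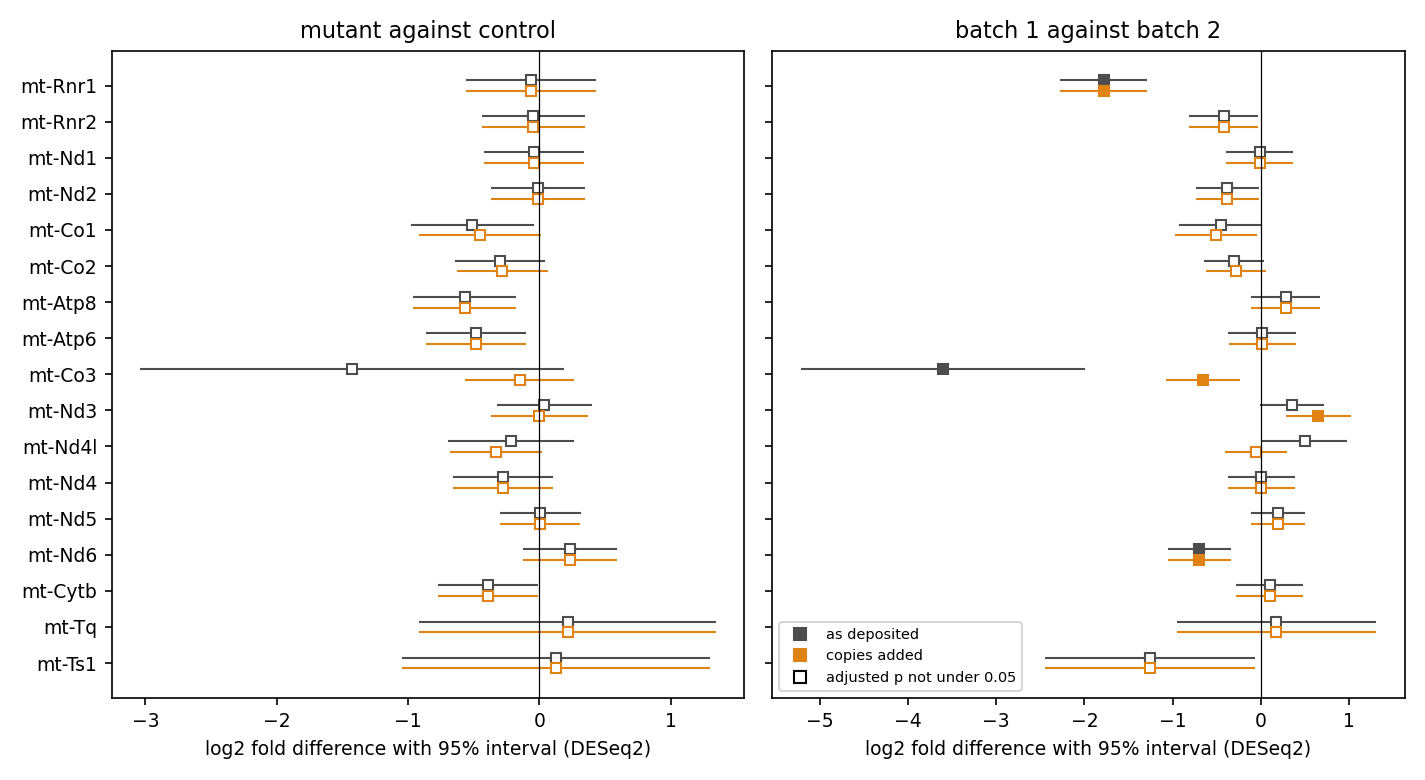
Log2 difference and 95% interval of the 17 tested members, mutant minus control (left) and batch 1 minus batch 2 (right), on counts as deposited and with copies added; filled symbols mark called genes. No gene is filled on the left, and mt-Rnr1, mt-Nd6 and mt-Co3 are filled on both scales on the right.

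The second comparison set the batches against each other. As deposited, 3 of 17 members were called, all lower in batch 1, where 27.9% of all genes were called (14% higher and 13.8% lower in batch 1). The same 3 had normalised counts without overlap between the batches, against 13% of all genes. The median difference of the members was −0.01, against 0.00 over all genes. Of 4 oviduct markers, Ovgp1 was called lower in batch 1 (log2 difference −5.87, DESeq2 adjusted p = 5.47e-06) and the other 3 were too sparse to be tested. Their sum was 1.65 to 11.5 normalised counts in batch 1 and 21.3 to 396 in batch 2. Of 5 blood markers, Hba-a2 was called lower in batch 1 (−2.99, adjusted p = 0.00308) and the other 4 were too sparse to be tested, with overlapping sums of 2.07 to 10.2 and 5.34 to 83.7. The part of these cells, of PCR cycles and of litter in the batch differences was not tested.

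By p-value the first was mt-Rnr1, the small-subunit rRNA. Its normalised counts were 3520, 3388, 4634, 3003 and 7722 in batch 1 and 11172, 14990 and 22514 (lowest, median and highest) in batch 2. Every batch 1 embryo lay below every batch 2 embryo, and the log2 difference was −1.78 ± 0.25 (SE; DESeq2 adjusted p = 1.85e-10). It was called among controls alone (−2.23, adjusted p = 1.51e-15) and among mutants alone (−1.25, adjusted p = 0.00144). The large-subunit rRNA mt-Rnr2 ranged from 64900 to 110801 in batch 1 and from 78582 to 152334 in batch 2, and its difference of −0.42 ± 0.20 was not called (adjusted p = 0.114). Both rRNAs are cut from 1 precursor, with a tRNA gene between them.

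For mt-Nd6, a complex I subunit, counts were 1358, 1304.5, 2006, 1715 and 2260.5 in batch 1 and 2303, 2867 and 3335 (lowest, median and highest) in batch 2, without overlap. The log2 difference was −0.70 ± 0.18 (SE; DESeq2 adjusted p = 0.00133), and it was not called among mutants alone (−0.59, adjusted p = 0.0869) or by limma on TPM (−0.48, adjusted p = 0.100). Its overlap with mt-Nd5 on the other strand, and RNA antisense to it, cannot be told apart from it in unstranded counts.

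For mt-Co3, counts as deposited were 1053, 22.9, 62.0, 91.1 and 125 in batch 1 and 1086 to 5885 in batch 2, a log2 difference of −3.60 ± 0.82 (SE; DESeq2 adjusted p = 0.00019). With copies added the values became 8750 to 16142 in batch 1 and 13118 to 23202 in batch 2, which overlap. The difference was then −0.66 ± 0.21 (adjusted p = 0.0125), and it was not called among mutants alone (−0.24, adjusted p = 0.574), by limma, or without control 4, control 5 or mutant 4. As deposited, the call was lost among controls alone (−3.31, adjusted p = 0.109).

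For mt-Nd3, adding the copy moved the difference away from 0. As deposited its counts were 5886 to 8260 in batch 1 and 3727 to 7131 in batch 2, a difference of 0.35 ± 0.18 that was not called (DESeq2 adjusted p = 0.165). With Gm28438 added they were 7115 to 10131 against 3727 to 7132, a difference of 0.65 ± 0.19 (adjusted p = 0.00485), so that 4 members were called with copies added, against 27.9% of all genes. Among mutants alone the difference of mt-Nd3 was 0.57 and not called (adjusted p = 0.140). Only mt-Rnr1 and mt-Nd6 then lay without overlap.

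A further 3 mRNA genes and mt-Ts1 came near the threshold without passing it. The log2 difference was −0.38 ± 0.18 for mt-Nd2 (DESeq2 adjusted p = 0.120), −0.45 ± 0.24 for mt-Co1 (adjusted p = 0.162) and 0.50 ± 0.25 for mt-Nd4l (adjusted p = 0.131), which fell to −0.05 with copies added. For mt-Ts1 it was −1.26 ± 0.60 (adjusted p = 0.119). The genes mt-Nd1 (−0.01), mt-Atp6 (0.01), mt-Nd4 (0.00) and mt-Cytb (0.10) were close to equal between batches, each with a 95% interval of about 0.4 to either side.

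An interaction fit asked whether the mutant difference itself changed between batches. It called 0 of 17 members, with 1 at an unadjusted p under 0.05 (mt-Rnr1, 0.99 ± 0.45, DESeq2 adjusted p = 1.00), against 6 of 10472 genes (0.0573%). With copies added it again called 0, with 2 at an unadjusted p under 0.05, as mt-Co3 turned from −0.68 to 0.76 ± 0.38 (adjusted p = 1.00). edgeR likewise called 0 of 17, with 1 at an unadjusted p under 0.05.

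Ratios of 2 mitochondrial genes within an embryo are free of the scaling between libraries. These ratios were compared for 4 pairs between groups and between batches, by exact two-sided permutation tests over all 462 splits, adjusted over the 8 tests. The log2 ratio of mt-Rnr2 to mt-Rnr1 was 4.42, 4.70, 4.58, 4.43 and 3.81 in batch 1 and 2.30 to 3.44 in batch 2. Its means of 4.39 ± 0.34 (SD, n = 5) and 2.97 ± 0.40 (n = 6) differed by 1.42 (exact permutation p = 0.00216, the smallest these splits allow, adjusted p = 0.0115).

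The ratio of mt-Nd6 to mt-Nd5, the gene that faces it on the other strand, was lower in batch 1, at −3.74 ± 0.17 against −2.82 ± 0.26, a difference of −0.91 (exact permutation p = 0.00433, adjusted p = 0.0115). The ratio of mt-Atp8 to mt-Atp6, which share 1 mRNA, was higher in batch 1, at −2.80 ± 0.04 against −3.06 ± 0.13, a difference of 0.26 (exact permutation p = 0.00433, adjusted p = 0.0115). In these 3 pairs the batches did not overlap.

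The ratio of mt-Nd4l to mt-Nd4, which also share 1 mRNA, ranged from −5.25 to −3.60 as deposited and did not pass the test between batches (difference 0.42, exact permutation p = 0.171, adjusted p = 0.342). With copies added it narrowed to between −2.70 and −2.33 in all 11 embryos, with a difference of −0.06. Between mutants and controls the differences were −0.05 for mt-Rnr2 to mt-Rnr1, −0.10 for mt-Atp8 to mt-Atp6, 0.01 for mt-Nd4l to mt-Nd4 and 0.31 for mt-Nd6 to mt-Nd5, with adjusted exact permutation p-values of 0.976, 0.482, 0.976 and 0.482. Permuted within batch (200 splits), the adjusted exact permutation p-values were 0.977, 0.247, 0.985 and 0.11, none past the threshold.

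**Figure D5:**
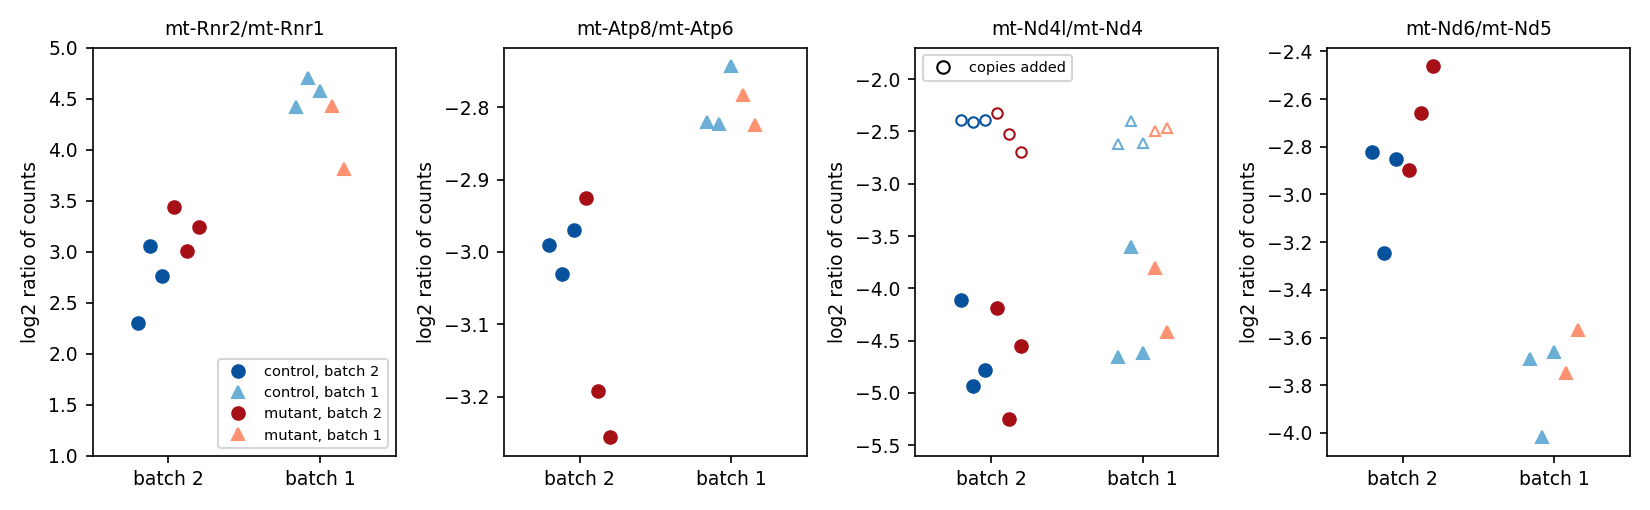
Log2 ratio of counts for 4 pairs of mitochondrial genes in each embryo, by batch; open symbols for mt-Nd4l to mt-Nd4 are with copies added. The batches do not overlap for mt-Rnr2 to mt-Rnr1, mt-Atp8 to mt-Atp6 and mt-Nd6 to mt-Nd5.

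Runs of A inside the genes, where an oligo-dT primer could also start, were counted as a sequence feature. The longest run held 3 to 8 bases among the 15 mRNA and rRNA genes, and 5 genes had a run of 7 or more. The run and 12 bases on either side are given for the rRNA pair and for mt-Nd6, the genes with the largest batch ratios (coding strand, GRCm38, run in capitals). They begin at base 636 of mt-Rnr1, base 395 of mt-Rnr2 and base 63 of mt-Nd6. Of the 2 rRNA genes, the less abundant mt-Rnr1 had the shorter run, and the relation of such runs to priming or to batch was not tested.
mt-Rnr1: tcagcaaaccctAAAAAggtattaaagta
mt-Rnr2: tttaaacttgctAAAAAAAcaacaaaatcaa
mt-Nd6: tgggttagcattAAAgccttcacctat

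Nuclear genes for the upkeep, transcription and processing of mitochondrial DNA and RNA were taken as a list of 47 symbols, of which 45 were found and 42 tested. In mutants 0 were called higher and 2 lower, against 0.565% and 0.881% of all genes, and the median difference of the list was −0.04. Lrpprc, which stabilises mitochondrial mRNAs and promotes their polyadenylation, was at 248, 112, 81.9, 103 and 60.0 normalised counts in mutants and at 151, 336 and 589 (lowest, median and highest) in controls. Of the mutants, 4 of 5 lay below all controls, and the log2 difference was −1.60 ± 0.35 (SE; DESeq2 adjusted p = 0.00118). Mterf3, which binds mitochondrial DNA and represses its transcription, was at 348, 300, 167, 206 and 229 in mutants and at 337 to 612 in controls, so that mutant 1 alone overlapped, with a difference of −0.96 ± 0.20 (adjusted p = 0.00064). Both calls were lost with edgeR, at differences of −1.59 for Lrpprc (adjusted p = 0.0975) and −0.95 for Mterf3 (adjusted p = 0.0606), and with limma, at −1.22 (adjusted p = 0.356) and −1.01 (adjusted p = 0.260). In batch 2 alone, the differences were −1.48 (DESeq2 adjusted p = 0.156) and −1.11 (adjusted p = 0.105).

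The mitochondrial RNA polymerase Polrmt (−0.14 ± 0.27, DESeq2 adjusted p = 0.921) and the transcription factor Tfam, which also packages the DNA (−0.30 ± 0.23, adjusted p = 0.652), were not called between the groups. By batch, 9 of the 42 were called higher in batch 1 and 1 lower, against 14% and 13.8% of all genes, with a median of 0.19. The largest rise was that of Elac2 (1.57), which cuts tRNA ends from mitochondrial precursors. Polrmt was also called (1.23), although its call was lost with an offset for effective length (0.34, DESeq2 adjusted p = 0.339) and with limma. The 1 called lower was Mterf3 (−0.51, adjusted p = 0.0489), whose batch call was lost with edgeR, with limma and when nearly any 1 embryo was left out. Of 7 listed regulators of mitochondrial biogenesis 5 were tested, with 0 called between the groups (1.45% of all genes) and 1 between the batches (27.9% of all genes), which was Nrf1 (0.89, higher in batch 1).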

How the data were processed

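Per the study's methods, the authors aligned single-end reads of 75 bases to GRCm38.p6 with STAR (2.6.0c), and RSEM then estimated gene abundance from a GENCODE annotation; no strand was kept. The deposited tables of each embryo hold expected counts (estimated counts that need not be whole), TPM and an effective length. The authors' DESeq2 (1.22.2) comparison table, which holds a log2 fold change, p-values and a mean normalised count, was not used. Symbols and positions came from a newer GENCODE release on that build (54079 of 54146 IDs matched), and sequences were read from its transcripts.

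Expected counts were rounded and fitted over all genes with DESeq2 (1.42.0; R 4.3.3; batch and group as terms, unshrunken, Benjamini-Hochberg). A normalised count is a count divided by the DESeq2 size factor. Ratios were taken as log2 of counts plus 0.5. Alternatives used edgeR (4.0.16) and limma (3.58.1) on log2(TPM + 1), and the fit was tested on simulated data. Genes named were all mRNA and rRNA members, the 5 largest tRNA genes, the largest copies, list genes called between the groups, and Tfam, Polrmt and Lrpprc; Elac2, Nrf1 and the named markers were chosen after their values were seen. The members and lists were chosen with earlier results of these data known. Groups and batches came from the labels, embryos were numbered in accession order, and nothing states which embryos shared a litter, so p-values measure the spread between these embryos. Binomial intervals of shares treat reads as independent and cover no spread between embryos, and those of log2 differences come from the SE of the fit.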

Additional observations from a re-analysis of the deposited data

Results flagged for a closer look

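The tRNA share of mitochondrial counts in mutant replicate 4, 0.00864%, lay apart from the other 4 mutants (0.0156% to 0.0179%). Of 42 groups of values examined for such a sample, 1 was flagged, and chance flags about 1 in 20. The embryo held 31 tRNA counts, with an exact binomial 95% interval of 0.0059% to 0.0123%.

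The nuclear copy Gm10925 differed in its mutant effect between batches, with a fitted interaction of -30.0 on the log2 scale. The value is a boundary of the fit and not a measured fold: the gene had counts in 3 embryos (mutant 1 of batch 2, controls 4 and 6 of batch 1) and was at 0 in the rest. edgeR gave -20.36 with an adjusted p of 1.00. The copy Gm28661, with over 1 normalised count in mutants 4 and 5 only, was also called in the DESeq2 interaction (10.88, adjusted p = 0.0092) and not by edgeR (adjusted p = 1.00).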

How the results depend on the processing

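Every mitochondrial gene called between batches as deposited kept its direction under each alternative. In mutants against controls no member was called under any scaling, filter, tool or single batch, and leaving out 1 embryo gave 0 to 1, also with copies added. The ratios stayed on the same side of the threshold. Between batches, leaving out 1 embryo gave 3 to 5 called members (3 to 6 with copies added), and 2415 to 2914 genes in all: mt-Rnr2 and mt-Nd2 were added without control 1, mt-Ts1 without control 2, mt-Nd2 without mutant 1, mt-Nd4l without control 4 and mt-Co1 without control 6. The call of mt-Co3 was lost among controls alone (-3.31, adjusted p = 0.109), and with copies added by limma (-0.46, adjusted p = 0.173) and without control 4, control 5 or mutant 4. Mutants alone with copies added left 1 called member. limma on TPM called mt-Tl1 (24 counts in all) in place of mt-Nd6, and shifted the median batch difference of all genes to 0.19, with 1603 called higher and 487 lower.

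Over all genes, calls in mutants against controls numbered 32 with edgeR, 17 with limma, 51 without the batch term, 78 in batch 1 and 48 in batch 2. With copies added they were 33, 17, 76 and 48 for edgeR, limma, batch 1 and batch 2. They ran from 90 (without mutant 2) to 265 (without control 2) with 1 embryo left out. Batch calls were 1498 among controls and 1090 among mutants alone (1499 and 1086 with copies added). Interaction calls were 0 with edgeR and 0 to 22 with 1 embryo left out. The cause of these changes in counts was not tested. Gm10925 gave -22.17 between batches among mutants alone (adjusted p = 3.19e-05), a limit of the fit that rests on mutant 1, the only mutant with counts. No paired analysis was possible because the labels give no replicate numbers that pair embryos. Low counts limit the tRNA genes most: 20 of 22 had a mean normalised count of 10 or less.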
